A study of Mus musculus with 2 samples.

Results

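Hox genes encode transcription factors with a homeodomain that pattern the body axis of the embryo. The RefSeq gene table of the GRCm38.p6 mouse assembly lists 39 of them, in the clusters Hoxa on chromosome 6, Hoxb on chromosome 11, Hoxc on chromosome 15 and Hoxd on chromosome 2, and members with the same number in different clusters form paralogue groups 1 to 13. The members described here were taken by symbol, as every probe set that named 1 gene only and whose gene was called Hoxa, Hoxb, Hoxc or Hoxd with a number. This gave 48 probe sets for 33 Hox genes, out of 18193 genes named alone by a probe set of the array. The remaining Hox genes were not analysed here.

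Within a cluster, genes with low numbers lie towards the 3′ end and are active early and towards the head, and genes with high numbers lie towards the 5′ end and are active later and towards the tail. In the developing kidney, the paralogues of group 11 act together in the metanephric mesenchyme, where they are needed for the outgrowth of the ureteric bud, and the paralogues of group 10 act in the stroma. The promoter of Hoxb7 is widely used to direct transgenes to the ureteric bud and the collecting duct. Hox proteins bind DNA together with TALE homeodomain partners of the Pbx and Meis families, and retinoic acid and the Polycomb and trithorax groups of chromatin proteins control when each Hox gene is on.

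Total RNA of kidney was hybridised to Affymetrix arrays for 2 kinds of mice, with 1 array for each. The control, +/+,inv-deltaC::GFP, had wild-type alleles at the inv locus. The cystic kidney, inv/inv,inv-deltaC::GFP, was homozygous for inv, a mutation in the gene of the ciliary protein inversin that serves as a model of nephronophthisis type 2, and such mice form many kidney cysts while their organs lie on the normal sides. Both carried inv-deltaC::GFP, a transgene for C-terminally truncated inversin with a green fluorescent protein tag, and the sources used here do not give its promoter. The mice were 4 weeks old by the series design, and the labels of the cystic array add an age of 28 days and a female sex, while those of the control array give neither. It was not clear how many animals gave the RNA of an array. With 1 array a group no difference could be tested, no p-value is given, and differences between animals cannot be told apart from those between genotypes.

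The sex label of the cystic array went against its signals. None of the 3 probe sets of Xist, the RNA of the inactive X chromosome, reached the median signal of that array, where they read 2.3 to 57.4, whereas 2 of 3 did so in the control, where they read 34.6 to 387. Of 9 probe sets for the Y-linked genes Eif2s3y, Kdm5d and Uty, 6 were above the median signal on both arrays, with highest signals of 206 in the control and 198 in the array labelled female. The control array thus had both Xist and Y-linked signals above its median, and the cystic array Y-linked signals without Xist. Whether an array holds RNA of both sexes was not tested. A difference in sex, or in the mix of sexes, between the mice behind the arrays cannot be told apart from the genotype in any value below. The tissue matched its label: all 10 proximal tubule markers, all 7 markers of the loop and distal tubule and all 9 matched collecting duct markers were above the median signal, while 5 of 6 lymphocyte and 4 of 6 adrenal markers were under it on both arrays.

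Each array's median signal over its probe sets (control 55.4, cystic 61.9) served as the floor for a Hox gene to count as measured. Signals are linear MAS5 intensities, and since each probe set binds its target with its own strength, they compare a gene between the arrays and not with another gene. In the control kidney 20 of the 33 Hox genes were above the floor, against 62.3% of all genes, and in the cystic kidney 19, all of them among the 20, against 62.3%. On at least 1 array 60.6% of the Hox genes and 66.0% of all genes were above it. The Hox genes thus passed the median about as often as other genes did. The only Hox gene above the floor on 1 array alone was Hoxa7.

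The measured Hox genes lay in the inner paralogue groups. All members with a probe set were measured in group 3 (Hoxa3, Hoxb3, Hoxd3), group 6 (Hoxb6, Hoxc6), group 8 (Hoxc8, Hoxd8), group 9 (Hoxa9, Hoxb9, Hoxc9, Hoxd9) and group 10 (Hoxa10, Hoxc10, Hoxd10). None was measured in group 1 (Hoxb1, Hoxd1), group 12 (Hoxd12) or group 13 (Hoxa13, Hoxb13, Hoxc13, Hoxd13), which hold the genes at the ends of the clusters. In the other groups, Hoxb2, Hoxb4, Hoxa5, Hoxb5, Hoxa7 and Hoxa11 were measured and Hoxa2, Hoxa4, Hoxc4, Hoxc5, Hoxb7 and Hoxd11 were not. By cluster, 6 of 9 Hoxa, 6 of 9 Hoxb, 4 of 7 Hoxc and 4 of 8 Hoxd genes were measured. The 13 genes that were not had control signals from 1.3 to 53.2 and cystic signals from 1.3 to 55.9. Closest to the floor from below was Hoxd11, with 53.2 and 55.9, and closest from above was Hoxc8, with 55.6 in the control. A signal under the floor does not show that the gene is silent, and Hoxb7 read 17.5 and 29.8 at its 1 probe set.

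**Figure D1:**
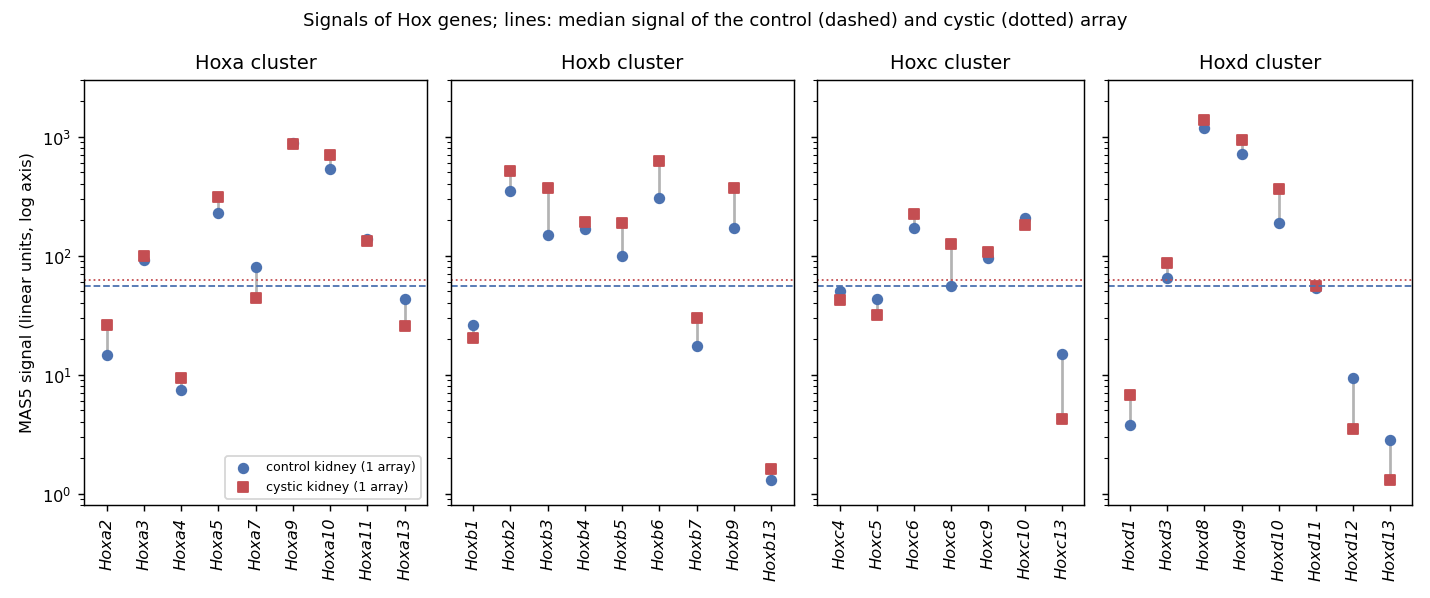
MAS5 signal of each Hox gene (log axis) on the control array (blue circles) and the cystic array (red squares), by cluster, with the array medians of 55.4 (dashed) and 61.9 (dotted) as lines; each point is 1 array and there is no error bar because there are no replicates. Measured genes lie above the line on both arrays except Hoxa7, whose cystic signal of 44.0 lies under its line, the members of groups 1, 12 and 13 lie under them, and the gaps between the arrays are widest among measured genes for Hoxb3, Hoxc8, Hoxb9 and Hoxb6.

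Setting the arrays side by side shows how Hox transcripts stand in cystic against non-cystic kidney, the truncated transgene being shared. Of the 20 measured Hox genes, 4 (20%) passed 2-fold upward in the cystic kidney, namely Hoxb3, Hoxb6, Hoxb9 and Hoxc8, and none was at least 2-fold lower. The same limits were passed by 7.06% (higher) and 3.78% (lower) of all 12014 measured genes. The log2 ratio, cystic over control, was above 0 for 16 of the 20 Hox genes, against 57.8% of all genes, and its median was 0.40, against 0.09. The Hox genes just past 2-fold and just short of it were Hoxb6 (2.03-fold), Hoxd10 (1.93-fold) and Hoxb5 (1.89-fold), so the count rests on a limit that lies among them. With each array centred on its median, which moves every log2 ratio by -0.16 and the median of all genes to -0.07, only Hoxb3 and Hoxc8 passed 2-fold, against 5.07% of all genes higher and 5.59% lower. With quantile normalization only Hoxb3 did, against 5.54% higher and 4.37% lower.

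The Hoxb genes were higher in the cystic kidney as a group, with 6 of 6 measured members above 0, a median log2 ratio of 0.97 and 3 members past 2-fold. Over all measured genes 57.8% were above 0 and 7.06% at least 2-fold higher, with a median of 0.09. Hoxb2, a gene of the 3′ end of its cluster known for its role in the hindbrain, went from a control signal of 350 to 512 in the cystic kidney, a log2 ratio of 0.55. Hoxb3, which lies in the same part of the cluster and also acts in the hindbrain, went from 150 to 371, a log2 ratio of 1.31. Hoxb4, known for its effect on blood stem cells, went from 169 to 191, a log2 ratio of 0.18. Of these, Hoxb3 alone passed 2-fold, and the value of Hoxb4 was under the spread of 0.29 (SD of log2 ratios) that different probe sets of a gene showed over 4694 genes with at least 2 probe sets above the floor on both arrays. Hoxb5, which acts in the lung and the enteric nervous system, went from 99.3 to 188, a log2 ratio of 0.92. Hoxb6 went from 307 to 624, a log2 ratio of 1.02. Hoxb9, the measured Hoxb gene nearest the 5′ end, went from 171 to 366, a log2 ratio of 1.09. The higher signals therefore lay along the cluster from Hoxb9 to Hoxb2, with Hoxb4 as the smallest difference between them. Hoxb1, Hoxb7 and Hoxb13 were under the floor on both arrays.

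The Hoxa genes showed no such shift: 3 of 6 measured members were above 0 and 3 below, against 57.8% of all genes above 0. None was past 2-fold, against 7.06% of all genes higher and 3.78% lower, and the median log2 ratio was 0.05. Hoxa3, which patterns the pharyngeal arches, read 91.3 (control) and 99.7 (cystic), a log2 ratio of 0.13 that was below 0 with median centring (-0.03) and quantile normalization (-0.07). Hoxa5, a regulator of lung and skeletal patterning, went from 227 to 312, a log2 ratio of 0.46. Hoxa7 read 80.0 (control) and 44.0 (cystic), the latter under the floor, so it was at least 1.29-fold lower. Hoxa7 was the Hox gene with the lowest log2 ratio, a bound of -0.37. Hoxa9, known for its part in blood cell growth and leukaemia, had 879 and 857, a log2 ratio of -0.04. Hoxa10, which acts in the reproductive tract and the kidney stroma, had 529 and 701, a log2 ratio of 0.41. Hoxa11, a member of the group that acts in the early kidney mesenchyme, had 139 and 133, a log2 ratio of -0.06. Hoxa9 and Hoxa11 therefore differed by less than 5% between the arrays, while Hoxa10, which lies between them, was 1.33-fold higher.

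Of 4 measured Hoxc genes, Hoxc8 was past 2-fold (25%, against 7.06% of all genes higher) and the median log2 ratio was 0.27. Hoxc6, known from thoracic patterning, went from 171 to 223, a log2 ratio of 0.38. Hoxc8, which patterns the thoracic skeleton and its motor neurons, went from 55.6 to 126, a log2 ratio of 1.18 that starts from a control signal next to the floor. With the floor at the 60th percentile it was 0.51, a bound. Hoxc9, a regulator of motor neuron identity, had 95.2 and 107, a log2 ratio of 0.16 that was -0.04 with quantile normalization. Hoxc10, a paralogue of the stromal group, went from 207 to 181, a log2 ratio of -0.20. Of the Hoxc genes 3 were therefore above 0 and 1 below. The values of Hoxc9 and Hoxc10 were under the spread of 0.29 between probe sets of a gene. Hoxc4, Hoxc5 and Hoxc13 were under the floor on both arrays.

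All 4 measured Hoxd genes were above 0, against 57.8% of all genes, and the median log2 ratio was 0.40. None was past 2-fold, against 7.06% of all genes higher and 3.78% lower. Probe sets that name Hoxd3 and Hoxd4 jointly are outside this count and were past 2-fold, with 1.18 and 1.25. Hoxd3, an anterior member of its cluster, went from 64.8 to 86.7, a log2 ratio of 0.42. Hoxd8 had 1179 and 1377, a log2 ratio of 0.22, while its other measured probe set had 985 and 766, a ratio of -0.36. The direction of Hoxd8 was therefore not settled between its probe sets. Hoxd9, a limb and spinal patterning gene, had 712 and 930, a log2 ratio of 0.38. Hoxd10, of the stromal group, went from 188 to 364, a log2 ratio of 0.95. From Hoxd8 to Hoxd10, which are next to each other in the cluster, the log2 ratios were thus 0.22, 0.38 and 0.95, and Hoxd11, Hoxd12 and Hoxd13 beyond them were under the floor on both arrays.

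Hoxd11 was not measured but read 53.2 (control) and 55.9 (cystic), just under the floors of 55.4 and 61.9. The edge of the measured Hoxd genes at Hoxd11 therefore rests on the floor chosen. The upstream sequences at this edge are shown because 3 measured genes stand there beside Hoxd11, which has 2 start sites in the table. Each is the 250 bases before the start site in the RefSeq promoter table of GRCm38.p6, on the + strand, 5′ to 3′, and capitals mark matches to 4 motifs searched on both strands: AGGTCA, the core site of nuclear receptors, TATAAA, the TATA box, TAATTA, a core site of homeodomains, and TGATTNAT, a joint site of Pbx and Hox proteins. They lie at chr2:74704365-74704614 for Hoxd8, chr2:74697513-74697762 for Hoxd9, chr2:74691641-74691890 for Hoxd10 and chr2:74679308-74679557 and chr2:74682073-74682322 for Hoxd11.
Hoxd8: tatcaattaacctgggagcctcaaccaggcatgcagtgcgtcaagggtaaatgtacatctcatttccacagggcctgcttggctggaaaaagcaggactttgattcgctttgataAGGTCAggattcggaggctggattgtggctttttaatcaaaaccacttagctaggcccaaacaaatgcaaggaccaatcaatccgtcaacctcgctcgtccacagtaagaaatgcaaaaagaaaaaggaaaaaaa
Hoxd9: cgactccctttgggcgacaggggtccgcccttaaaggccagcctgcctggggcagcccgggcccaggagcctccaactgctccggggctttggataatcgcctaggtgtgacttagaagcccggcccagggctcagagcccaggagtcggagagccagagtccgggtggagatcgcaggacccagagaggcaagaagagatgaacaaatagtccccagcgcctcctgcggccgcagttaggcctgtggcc
Hoxd10: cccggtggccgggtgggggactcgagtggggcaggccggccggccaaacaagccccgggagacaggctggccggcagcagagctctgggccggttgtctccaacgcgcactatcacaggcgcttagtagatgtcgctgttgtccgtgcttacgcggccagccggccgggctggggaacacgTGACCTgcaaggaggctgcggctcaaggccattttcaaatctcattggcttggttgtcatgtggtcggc
Hoxd11, start nearer Hoxd12: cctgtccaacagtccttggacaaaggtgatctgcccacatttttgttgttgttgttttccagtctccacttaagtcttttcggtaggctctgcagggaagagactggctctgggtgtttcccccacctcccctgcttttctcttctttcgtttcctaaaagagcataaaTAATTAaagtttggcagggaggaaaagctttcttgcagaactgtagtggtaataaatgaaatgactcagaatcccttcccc
Hoxd11, start nearer Hoxd10: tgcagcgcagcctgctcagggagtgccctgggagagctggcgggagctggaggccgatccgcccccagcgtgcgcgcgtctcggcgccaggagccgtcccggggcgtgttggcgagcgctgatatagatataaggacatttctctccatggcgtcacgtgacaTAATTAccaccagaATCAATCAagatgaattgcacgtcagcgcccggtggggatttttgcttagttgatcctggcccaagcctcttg

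Hoxd8 and Hoxd10 each held 1 AGGTCA match in these bases, and Hoxd9 held no match to any of the 4 motifs. TAATTA occurred once before each Hoxd11 start, TGATTNAT once before the start nearer Hoxd10, and TATAAA in none of the stretches. The CG dinucleotide, the site of DNA methylation, occurred 6 times before Hoxd8, 13 times before Hoxd9, 20 times before Hoxd10, and 2 and 20 times before the Hoxd11 starts. The table held 24 windows of 300 bases for 22 Hox genes, which reach from 250 bases before to 50 bases after a start, and none for Hoxb3, Hoxb6, Hoxb9 or Hoxc8. In these Hox windows the median number of CG was 14.5 and the median GC content 57.7%, against 7 and 52.7% over all 32851 windows of the table. AGGTCA was present in 7 of the 24 (29.2%) and in 16.3% of all windows, TATAAA in 4 (16.7%) and 13.6%, TAATTA in 2 (8.33%) and 5.29%, and TGATTNAT in 2 (8.33%) and 3.22%. A match is only a string of letters and shows no binding in the kidney.

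Paralogue groups give a second reading of the same 20 values, since their members have the most alike homeodomains. By probe sets that name 1 gene, a Hoxb gene was measured together with a paralogue in 4 groups. In 4 of the 4 the Hoxb gene had the highest log2 ratio. In group 3, Hoxb3 had 1.31 (second probe set 1.02), Hoxd3 0.42 and Hoxa3 0.13. Probe sets that name Hoxd3 and Hoxd4 jointly had 1.18 and 1.25 and were left out of this count. They belong to group 3 or to group 4, where Hoxb4 had 0.18, so the place of Hoxb genes in these groups is not settled. In group 5, Hoxb5 had 0.92 and Hoxa5 0.46. In group 6, Hoxb6 had 1.02 and Hoxc6 0.38. Group 9, the only group measured in every cluster, spread from -0.04 for Hoxa9 through 0.16 for Hoxc9 and 0.38 for Hoxd9 to 1.09 for Hoxb9. In group 8, Hoxc8 had 1.18 and Hoxd8 0.22, and in group 10, Hoxd10 had 0.95, Hoxa10 0.41 and Hoxc10 -0.20. The probe set that names Hoxb7 and Hoxb8 jointly had 0.70 and was also left out of the count. It belongs to group 7, where Hoxa7 had a bound of -0.37, or to group 8, where its value is under that of Hoxc8. Medians over the measured members were 0.42 for groups 1 to 4, 0.46 for groups 5 to 8 and 0.27 for groups 9 to 13.

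**Figure D2:**
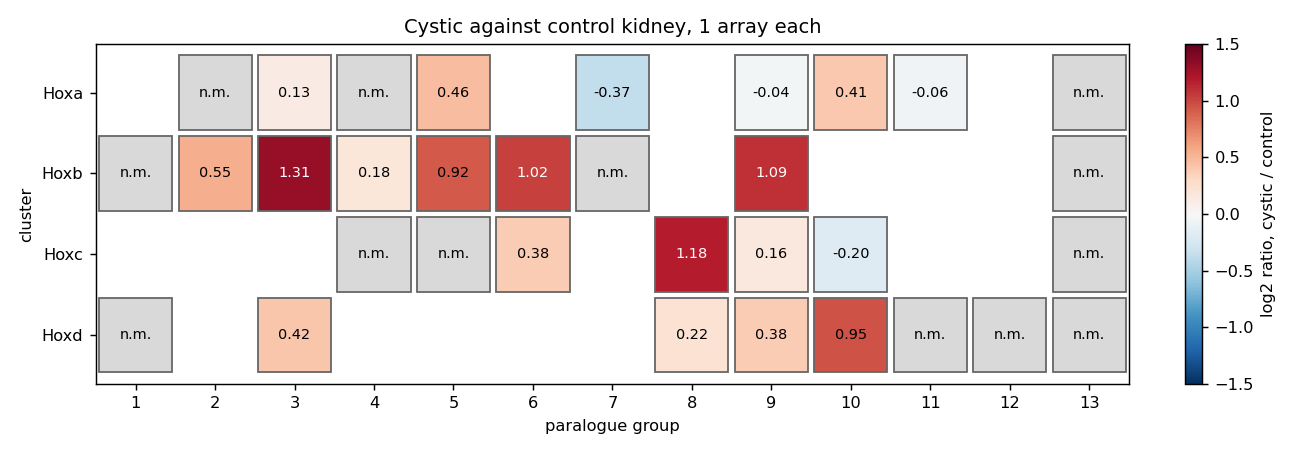
Log2 ratio of signal, cystic over control (1 array each), for each Hox gene by cluster (rows) and paralogue group (columns); grey squares marked n.m. were under the floor on both arrays, and empty places hold no gene analysed here. The Hoxb row holds 6 values from 0.18 to 1.31, and the Hoxa row 6 values from -0.37 to 0.46.

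Repeat probe sets, which read the same RNA and so give technical and not biological error, were measured for 7 Hox genes, and their log2 ratios had the same sign for 5 of them. Hoxb3 was past 2-fold at both of its probe sets, with 1.31 and 1.02. Hoxb4 had 0.18 and 0.21, Hoxa5 0.46 and 0.12, Hoxc6 0.38 and 0.21, and Hoxa3 0.13 and 0.07. Hoxa9 had -0.04 and 0.0017, and Hoxd8 had the largest gap, 0.59. Hoxb6, Hoxb9 and Hoxc8, the other genes past 2-fold, had 1 probe set each, and that of Hoxb6 is marked by the manufacturer's suffix as matching several transcripts. For Hoxa3, Hoxa10 and Hoxc6 some probe sets were above and others under the floor. At Hoxa10 the probe set not used read 16 and 17.1, and at Hoxc6 the probe set under the floor read 3.1 and 50.1. Paralogues are alike in sequence within the homeodomain, and which part of its transcript each probe set reads was not examined.

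**Figure D3:**
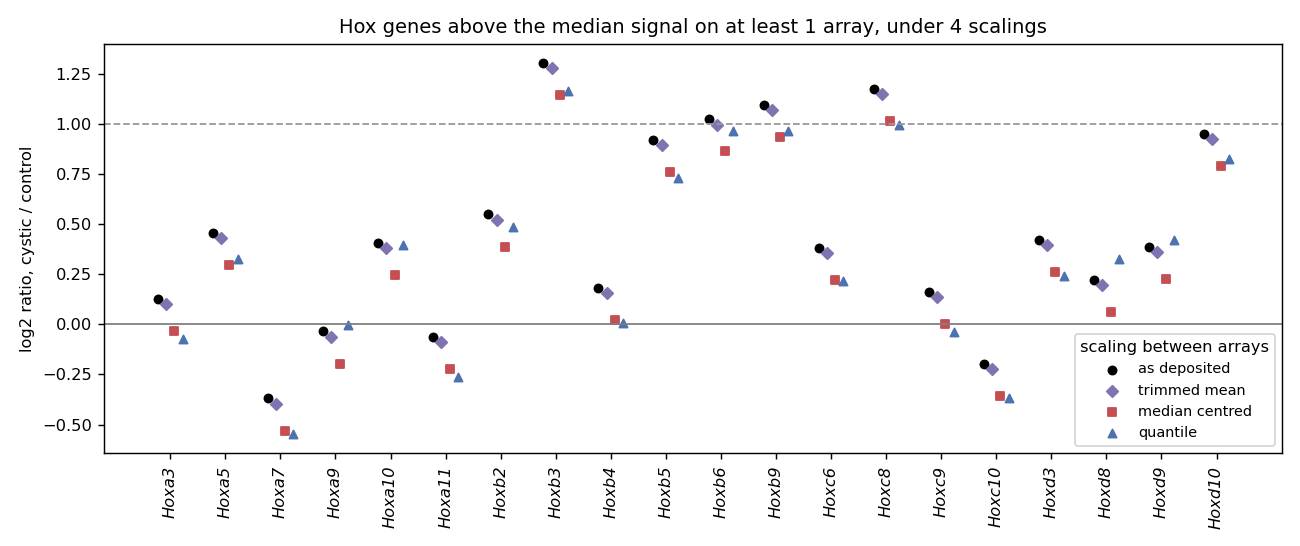
Log2 ratio, cystic over control, of the 20 measured Hox genes under 4 scalings of the arrays: as deposited (black circles), equal trimmed means (purple diamonds), median centring (red squares) and quantile normalization (blue triangles); the dashed line is 2-fold. Hoxb3 is above the line under all 4, and Hoxb6 and Hoxb9 are below it with median centring and quantile normalization. Just below it are also Hoxb6 with equal trimmed means (0.997) and Hoxc8 with quantile normalization (0.993). Hoxa3 and Hoxc9 change side of 0.

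Partners and regulators of Hox genes were read from lists of related genes. The list of TALE homeodomain genes, which holds the DNA-binding partners of Hox proteins, had 3 of 8 measured members at least 2-fold higher, none lower, and a median log2 ratio of 0.53, where 7.06% of all measured genes were higher and 3.78% lower. Meis1, a Hox partner, went from 58.5 to 119, a log2 ratio of 1.02 that starts next to the floor, and its relatives Meis2 and Pknox2 had 0.38 and 0.58. Tgif1 (90.3 to 207) and Tgif2 (68.2 to 154) had 1.20 and 1.17, and both are known as repressors in TGF-beta and retinoid signalling and not as Hox partners. Pbx2 and Pbx3 had 0.47 and 0.28, Pknox1 had -0.27 at the probe set used and 0.27 at its second. Of 19 measured Polycomb, trithorax and other regulators of Hox genes, none was past 2-fold in either direction at the probe set used. That stands beside the small shares of 7.06% higher and 3.78% lower over all measured genes, and the list median was 0.19. At second probe sets Men1, a trithorax-type cofactor, had 1.01 against 0.0048 at the one used, and Kdm6b, a demethylase of the Polycomb mark, had 0.81 against 0.23. The widest differences at the probe sets used were those of the Polycomb proteins Phc2 (0.75), Pcgf2 (0.69), the methyltransferase Ezh2 (0.56) and Rnf2 (0.55). Cdx1, Cdx2 and Cdx4, activators of posterior Hox genes in the embryo, were under the floor on both arrays.

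In the retinoic acid pathway 3 of 13 measured members were at least 2-fold higher and 1 lower, with a median log2 ratio of 0.28, beside 7.06% and 3.78% of all measured genes. The 1 lower member is 7.69% of the list. Aldh1a2, the main enzyme that makes retinoic acid in the embryo, went from 45.5, under the floor, to 570 and was at least 10.3-fold higher. Aldh1a1, a related dehydrogenase, went from 65.7 to 312 and was 4.75-fold higher. Stra6, the cellular receptor of the retinol carrier, went from 49.6 to 145 and was at least 2.62-fold higher. Cyp26b1, which breaks retinoic acid down, went from 125 to 39.3 and was at least 2.01-fold lower, a bound just past the limit. Synthesis and uptake genes were thus the ones past 2-fold upward and a breakdown enzyme the one past it downward, while Aldh1a3, another synthesis enzyme, had -0.39 and Dhrs3, which turns retinal back to retinol, had -0.79. Among the receptors Rara had 0.56, Rarg 0.55, Rxrb 0.08, Rarb 0.00072 and Rxra -0.14, and Rxrg was under the floor on both arrays.

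Among 11 measured regulators of kidney development, 3 were at least 2-fold higher and none lower, beside 7.06% and 3.78% of all measured genes, with a median of 0.12. Tcf21, a factor of stroma and podocytes, had a log2 ratio of 1.55 at the probe set used and 0.19 at its second. Wnt4, a signal of the early nephron, was at least 3.40-fold higher, and its second probe set had a log2 ratio of 0.29. Gata3, of the collecting duct, had a log2 ratio of 1.08. Gdnf, Ret, Eya1, Osr1, Cited1 and Foxd1, genes of the embryonic kidney with which group 11 Hox genes are known to act or which mark its progenitors, were under the floor on both arrays, and Six2 went from 63.8 to 51.7, under the cystic floor. Other genes of the same list were above the floor on both arrays: Sall1 had 593 and 578, Itga8 520 and 495, Pax8 606 and 940, Wt1 78.6 and 93.6, and Lhx1 257 and 139.5.

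Genes that flank the clusters, none more than 5 genes away in the RefSeq order, had 1 of 19 measured members at least 2-fold higher (5.26%, against 7.06% of all measured genes) and none lower (3.78% of all), with a median of 0.15. That member was Snx10, beyond the Hoxa cluster, with a log2 ratio of 1.30 from a control signal of 57.7. Hibadh, on the other side of Hoxa and an enzyme of valine breakdown, had -0.998 at the probe set used, just short of 2-fold lower, and -1.10 at its second, past it. Hnrnpa1, an RNA-binding protein gene beside Hoxc, had 0.42 at the probe set used and 1.10 at its second. Beside Hoxb, Snx11 had 0.61, Cbx1 0.18, Nfe2l1 0.07 and Ttll6 -0.13. These were under the Hoxb median of 0.97, but Snx11 was above Hoxb2 (0.55) and Hoxb4 (0.18), so the ranges overlapped. Skap1 and Calcoco2, also beside Hoxb, were under the floor on both arrays.

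Markers of other cells moved on the same arrays, which read RNA of all kidney cells together, where more cells of a type and more RNA in each cell cannot be told apart. Over all measured genes, 7.06% were at least 2-fold higher and 3.78% lower. All 12 stromal markers were at least 2-fold higher, with log2 ratios from 1.42 to 3.81 and a median of 2.08. Their summed signals were 6905 (control) and 30500 (cystic). Of 8 macrophage markers 6 were at least 2-fold higher, with a median of 2.71 and summed signals of 1780 and 8766. All 10 proximal tubule markers were lower, 8 of them at least 2-fold, with a median of -1.23 and summed signals of 42229 and 18786. The 7 loop and distal tubule markers were all below 0, 3 of them at least 2-fold lower, with a median of -0.94 and summed signals of 30935 and 18830. The 9 collecting duct markers ranged from -2.14 for Slc4a1 to 0.94 for Scnn1g, 2 of them at least 2-fold lower, with a median of -0.01 and summed signals of 6139 and 6084, the 6 urothelial markers a median of 0.57 and the 7 endothelial markers -0.13. The part of any cell type in the Hox values was not tested. No marker list and no cell count was used to correct the Hox values.

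**Figure D4:**
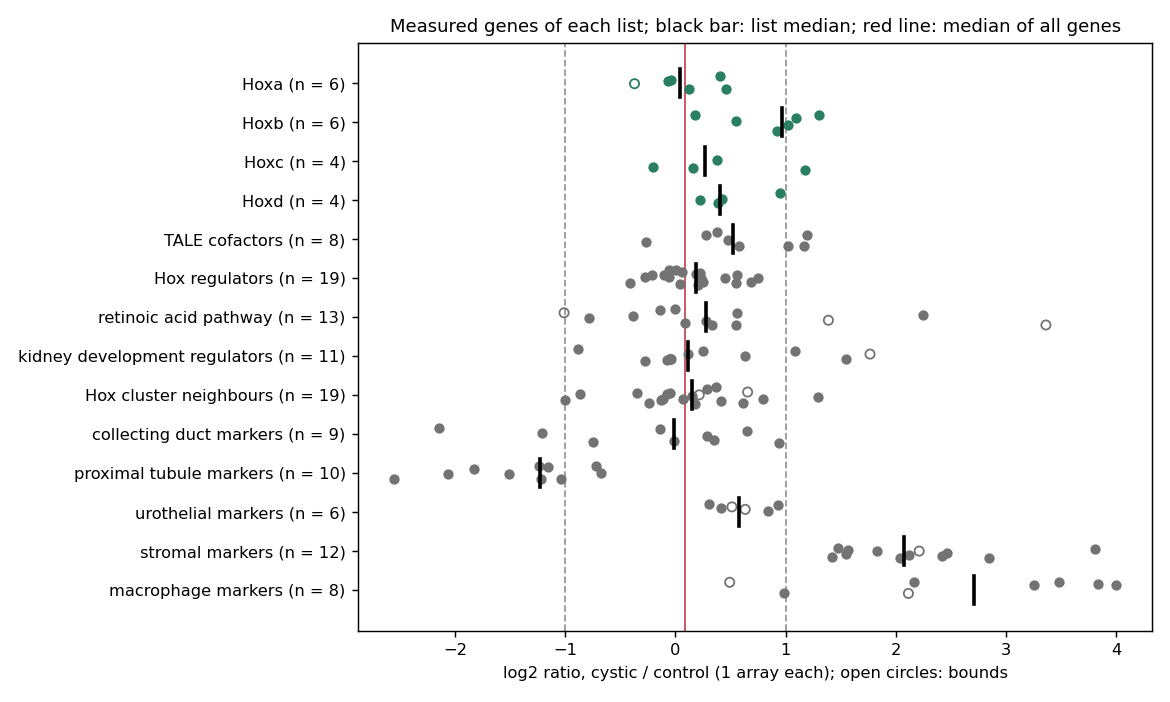
Log2 ratio, cystic over control (1 array each), of the measured genes in each Hox cluster (green) and each related or marker list (grey); bars are list medians, open circles are bounds, the red line is the median of all genes (0.09) and dashed lines are 2-fold. The Hoxb bar stands at 0.97, the other Hox bars between 0.05 and 0.40, and the stromal bar at 2.08.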

How the data were processed

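The deposited table holds the authors' MAS5 signal per probe set, a linear intensity (MAS5 per the submitters' processing notes, with no version; scaling target and detection calls are not given in the sources used here). After 64 control probe sets were left out, 45037 remained, with 2% trimmed means of 178 and 181, and the deposited scaling was kept. The platform annotation named 1 gene for 34945 probe sets, several for 932 and none for 9160, and 34741 of the 34945 gene identifiers were found in the RefSeq table, used for symbols and gene order. Signals under an array's median were raised to it, which makes a ratio a bound, and probe sets under it on both arrays were not measured. Of several probe sets, a gene took that with the highest mean log2 signal over the arrays after that step; where all were under the floor they tied and the first by identifier was taken, which sets the signal shown for such a gene. The arrays' number limits the precision, and with 1 array a group no test was run. The steps were run on simulated data whose planted changes were larger than any Hox difference here. Calls near the 2-fold limit were therefore not tested. Every measured Hox gene is named, and members of the other lists were named if past 2-fold or among the widest differences. Other list members, named for their role, were chosen after their values were seen. Members and the 16 lists were chosen with earlier results of these data known. Summaries and plots used Python 3.11.15, pandas 2.3.3 and matplotlib 3.10.9. Alternatives were other scalings, floors, probe set rules and a 1.5-fold limit.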

Additional observations from a re-analysis of the deposited data

Results flagged for a closer look

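Signal outside the Hox genes described above came from 3 probe sets that name a pair of Hox genes jointly and so cannot be assigned to either. Both probe sets that name Hoxd3 and Hoxd4 were higher in the cystic kidney, with a log2 ratio of 1.18 (150 to 338) at the first and 1.25 (76.4 to 181) at the second. They drew attention because these data were used in no comparison and their signal was at least 2-fold above that of the control. The probe set that names Hoxd3 alone had 0.42. No group had the 4 samples needed to look for an outlying sample.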

How the results depend on the processing

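Of the 20 measured Hox genes, 20 kept their direction with equal trimmed means, 19 with median centring and 18 with quantile normalization, and 18 of 19 did with the median over probe sets, where Hoxd8 turned to -0.07. The Hox genes past 2-fold upward were 4 as deposited, 2 with median centring (Hoxb3 and Hoxc8) and 1 with quantile normalization (Hoxb3). They were 3 with equal trimmed means (6.62% of all genes higher), with the floor at the 60th percentile (6.06%) and without probe sets marked as shared (6.67%). In the last setting Hoxb6 had no value, because its 1 probe set carries such a mark. At a 1.5-fold limit they were 6, where 16.4% of all genes were higher. None was 2-fold lower except with no floor, where 3 were, and there the Hoxc median was -0.20, because genes under the floor are then included. The Hoxa median stayed within -0.11 and 0.14 and so had no settled sign, while the Hoxb median stayed between 0.77 and 0.97. Over the 5 lists of related genes, with 8, 19, 13, 11 and 19 measured members, 10 members were 2-fold higher and 1 lower. Of all measured genes, 7.06% were higher and 3.78% lower. The higher count was 5 with the floor at the 60th percentile (6.06% of all genes) and 16 at 1.5-fold (16.4%). The lower count was 0 with the floor at the 60th percentile, 2 with equal trimmed means, quantile normalization, the median over probe sets or no shared probe sets, 4 with median centring, and 5 at 1.5-fold or with no floor. Of all genes, 5.59% were lower with median centring and 4.37% with quantile normalization. No paired analysis was possible because each group has 1 array, and no array could be left out.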

Other observations

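Antisense transcripts of the Hox clusters have their own symbols on the array and were not counted among the Hox genes. Hoxb5os, antisense to Hoxb5, read 751 (control) and 720 (cystic), a log2 ratio of -0.06, beside 0.92 for Hoxb5 itself. Hoxd3os1 had 141 and 258, a log2 ratio of 0.87, at its measured probe set, beside 0.42 for Hoxd3. Hoxa11os went from 30.6, under the floor, to 63.2, just above it, a bound of 0.19, beside -0.06 for Hoxa11. The strand that each probe set reads was not examined. The probe set that names Hoxb7 and Hoxb8 jointly went from 115 to 187, a log2 ratio of 0.70, while the probe set that names Hoxb7 alone was under the floor on both arrays.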
